A study of Mus musculus with 2 samples.

Results

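Wnt proteins are secreted lipid-modified ligands, and the genes described here are those of the ligands, the R-spondins, the Frizzled receptors and their co-receptors Lrp5 and Lrp6, the secreted antagonists and the feedback inhibitor Axin2. The members were chosen by name, as every oligonucleotide that is not a control and whose array gene name starts with Wnt or Fzd and a digit, or with Dkk, Sfrp or Rspo, or is Wif1, Frzb, Axin2, Lrp5 or Lrp6. This gave 47 genes of 27551 on the arrays, measured by 62 oligonucleotides of 41069. The names decided membership, but the gene family was proposed with ratios of these arrays known, so the members' values are a description and support nothing further.

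Gene expression was measured in the gastrocnemius (GAS) muscle of male C57BL/6 mice aged 15 weeks on a normal diet, with 5 WT and 5 *Gde5* skKO mice named in the design. *Gde5* (Gpcpd1) encodes an enzyme that cleaves glycerophosphocholine, and in *Gde5* skKO mice its floxed exon is removed by Cre under the human α-skeletal actin promoter, which acts in skeletal muscle fibres, so other cells of the muscle keep the floxed allele. The labels call the controls as wild-type and the methods describe floxed littermates without Cre, and the labels give neither fasting nor a glucose load, while the paper describes arrays of both states, so which state these arrays hold, and whether both hold the same one, is not known. RNA of both genotypes was hybridized together on 2 Agilent whole mouse genome arrays, WT in Cy3 and *Gde5* skKO in Cy5 on array 1 and the reverse on array 2, and neither pooling of the RNA nor whether the 2 arrays shared it is stated.

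A Wnt ligand binds a Frizzled receptor, and with Lrp5 or Lrp6 this keeps β-catenin from being degraded, while other branches act on cell polarity and calcium. R-spondins strengthen the signal by keeping Frizzled receptors at the surface. Sfrp proteins and Frzb bind Wnt ligands outside the cell, Wif1 does the same, and most Dickkopf proteins act on Lrp5 and Lrp6. In muscle the pathway is known for its part in development, in satellite cells after injury and in fibrosis.

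Each ratio below is the log2 of *Gde5* skKO over WT, and signals are the processed intensities of the scanner software in arbitrary units, which compare channels of 1 oligonucleotide and not different genes. A gene stood for by its brightest oligonucleotide was tested where each array marked that one as well above background in 1 channel or both, which held for 24 members and 13565 genes. It was called when the software's p-value of the ratio was under 0.05 on both arrays in the same genotype direction. That p-value covers measurement error on 1 array and says nothing of how mice vary, and with 2 arrays the precision is limited. Genotypes said below not to overlap are 2 signals against 2, and the share of all tested genes without overlap was not counted. Lack of overlap is a description and no call. The median ratio over all tested genes was 0.01 on array 1 and 0.02 on array 2. Both arrays lie on 1 slide of 1 scan, and 195 and 221 of 43379 spots carried outlier marks and were dropped. Of the 4 oligonucleotides of *Gde5* itself, 3 had ratios from -3.29 to -2.59, and the 1 at chr2:132256048-132256107 of mm8 had -0.05 and -0.47. All 8 markers of skeletal muscle fibres were tested and none was called, with summed signals of 586574 and 547702 in WT and 617249 and 543918 in *Gde5* skKO.

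Dkk3, Sfrp2 and Fzd7 were the members called lower in *Gde5* skKO muscle, and none was called higher. These were 3 of the 24 tested members, where 236 of all tested genes, or 1.74%, were called lower and 215, or 1.58%, higher. Dkk3, a secreted Dickkopf-related glycoprotein, was 3.91-fold lower. Sfrp2, a secreted Frizzled-related protein made mostly by connective tissue cells, was 2.22-fold lower. Fzd7, a receptor of satellite cells among other cells, was 1.41-fold lower. Another background correction and normalization, normexp and loess, gave smaller differences, with mean log2 ratios of -0.78, -0.57 and -0.38 in that order.

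Of the 47 genes, 25 were above background in the WT channel of array 1 and 27 in the *Gde5* skKO channel, and 22 and 24 on array 2. As shares these were 53.2%, 57.4%, 46.8% and 51.1%, against 48.1%, 54.4%, 49.7% and 47.4% of all genes. In both channels of both arrays 21 members were above background. The 18 genes with no oligonucleotide above background in any channel were Wnt1, Wnt2b, Wnt3, Wnt5a, Wnt7a, Wnt7b, Wnt8a, Wnt8b, Wnt9b, Wnt10b, Wnt16, Rspo2, Rspo3, Rspo4, Fzd3, Fzd5, Dkk1 and Dkk4. By role, 11 of 19 ligands and 3 of 4 R-spondins were dark in this way, against 2 of 12 receptors and co-receptors and 2 of 11 secreted antagonists. A dark spot says that signal could not be told from background, not that the RNA was absent. Wnt1, spotted repeatedly, is among the 18 because no channel had most of its spots above background, though some single spots were.

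**Figure D1:**
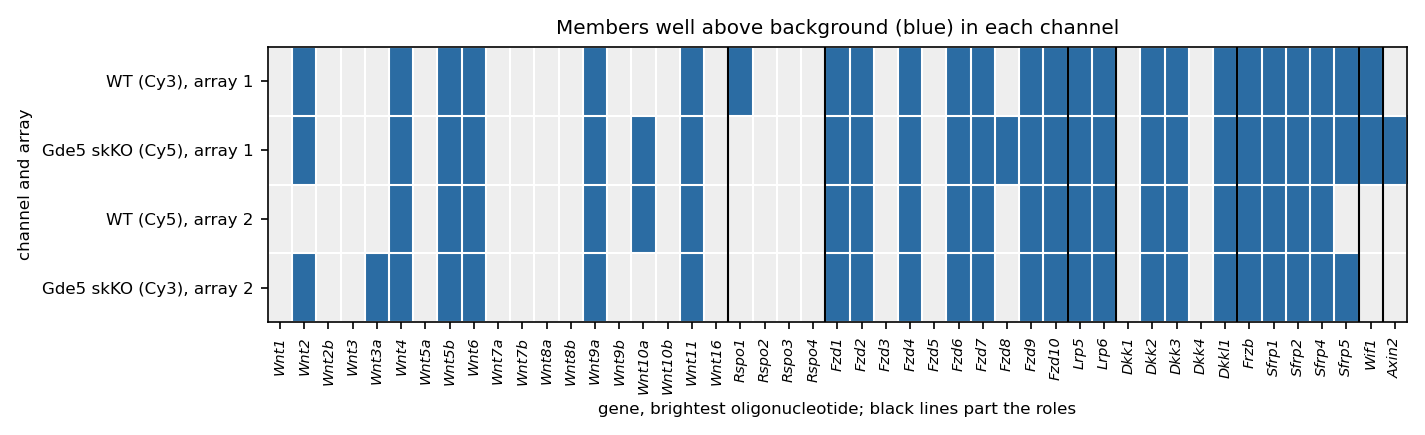
Above-background marks of the 47 member genes, with 1 column per gene ordered by role from ligands at the left to Axin2 at the right and 1 row per channel and array. Blue fields are well above background. The ligands and R-spondins at the left are mostly grey, with 11 of 19 and 3 of 4 dark in every row, while most receptors and antagonists are blue in every row.

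Among the ligands, Wnt4, Wnt5b, Wnt6, Wnt9a and Wnt11 were above background in both channels of both arrays, and none of them was called. Wnt4, a ligand with known roles in muscle and at the neuromuscular junction, had WT signals of 591 and 714 and *Gde5* skKO signals of 716 and 730, with ratios of 0.28 and 0.03. Wnt9a had WT signals of 824 and 793 against 767 and 703, with ratios of -0.10 and -0.17. Neither gene's signals overlapped between the genotypes, Wnt4 being higher in *Gde5* skKO by a narrow margin and Wnt9a lower, but no ratio passed the threshold on an array. Wnt11, which acts mainly through the branch without β-catenin, had 234 and 211 in WT against 233 and 272, with ratios of -0.01 and 0.37. Wnt5b had 101 and 92.4 in WT against 132 and 107, with ratios of 0.39 and 0.21. Wnt6 had 160 and 179 in WT against 168 and 166, with ratios of 0.07 and -0.11. Both *Gde5* skKO signals of Wnt5b lay above both WT signals, without passing the threshold on either array, and those of Wnt6 and Wnt11 overlapped with WT.

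Wnt2 and Wnt10a were tested but dim. Wnt2 was above background in every channel except WT on array 2, with ratios of -0.37 and 0.83. Wnt10a had signals of 6.69 in WT and 40.8 in *Gde5* skKO on array 1, and 44.2 in WT and 14.3 in *Gde5* skKO on array 2. Only the Cy5 channel was above background on each array, and the ratios of 2.61 and -1.63 followed the dye and not the genotype. Entry into the test through 1 dye alone favours such a difference but does not force it. Wnt3a was above background only in the *Gde5* skKO channel of array 2, at 58.0 against 26.6 in WT, with 20.2 against 38.0 on array 1.

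Wnt1 offered a view of the spread near background, because its oligonucleotide at chr15:98621293-98621352 of mm8 is spotted 10 times on each array. On array 1 its spots had ratios from -1.44 to 0.02 with a median of -0.78 (SD 0.41, n = 10 spots), and on array 2 from 0.30 to 1.79 with a median of 0.74 (SD 0.60, n = 9 spots). The WT spots were above background 5 times on array 1 and the *Gde5* skKO spots 4 times, and no spot was on array 2. No channel had most of its spots above background, so Wnt1 was counted as dark. Of the spots kept, 9 of 10 on array 1 and 9 of 9 on array 2 were thus brighter in Cy3, whichever genotype carried that dye. Spots of 1 oligonucleotide are technical repeats.

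None of the 4 R-spondins could be tested. Rspo1 was above background only in the WT channel of array 1, with WT signals of 78.6 and 58.1 against 50.5 and 39.8 in *Gde5* skKO. Its ratios were -0.64 and -0.55, with errors of 0.46 and 0.61, and neither passed the threshold.

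The receptors were measured better than their ligands, with 7 of 10 Frizzled genes tested and all 7 above background in both channels of both arrays. Fzd7 was the 1 called. Its oligonucleotide at chr1:59430894-59430953 of mm8, plus strand, had WT signals of 1063 and 1137 and *Gde5* skKO signals of 732 and 833. Both WT signals lay above both *Gde5* skKO signals. The ratios were -0.54 (error 0.21) and -0.45 (error 0.21), with a mean of -0.49 ± 0.06 (SD, n = 2 arrays). The smallest error of any member was 0.20, so that on 1 array a ratio nearer to 0 than 0.40 could not be called, and Fzd7 lay close to that limit. With normexp background correction and loess in limma its ratios were -0.70 and -0.05, and the adjusted p of limma's moderated test was 0.518. That test takes the 2 array ratios as replicates, and since the arrays may share RNA, its p-value need not cover how mice vary. A second oligonucleotide of Fzd7, at chr1:59429069-59429128, was not above background in any channel.

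The other Frizzled genes were not called. Fzd1 came nearest, with 257 and 219 in WT against 183 and 174 in *Gde5* skKO, so that its groups did not overlap, and ratios of -0.49 and -0.33, of which the first alone passed the threshold. Fzd4, a receptor of vessels and muscle, had 4169 and 4134 in WT against 4155 and 3239, with ratios of -0.00471 and -0.35. Fzd9, known at the neuromuscular junction, had 4493 and 5955 against 5065 and 6550, with ratios of 0.17 and 0.14. The Fzd9 signals of both genotypes were higher on array 2 than on array 1, and the genotypes overlapped. Fzd6 had ratios of -0.12 and 0.10. Fzd2 had 176 and 165 in WT against 150 and 259, with ratios of -0.23 and 0.65, the second past the threshold. Its dimmer oligonucleotide was above background in 1 channel only and had -1.48 and 1.63, which is the dye direction on both arrays. Fzd10 had ratios of 0.27 and 0.05 from its brightest oligonucleotide and 0.99 and 0.22 from the other one, of which the 0.99 alone passed the threshold. Fzd8 was above background only in the *Gde5* skKO channel of array 1, with signals of 32.9 there and 30.4 in WT.

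Lrp5 and Lrp6 were above background in every channel. Lrp5 had 396 and 375 in WT against 319 and 329, without overlap, and ratios of -0.31 and -0.19 that did not reach the threshold. Lrp6 had 98.2 and 111 in WT against 111 and 112, with ratios of 0.17 and 0.01. Over the 9 tested receptors and co-receptors the median of the mean ratios was -0.01, beside 0.01 over all tested genes. Of the 9, 3 lay above 0 on both arrays and 4 below, beside 3961 and 3427 of all 13565 tested genes.

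**Figure D2:**
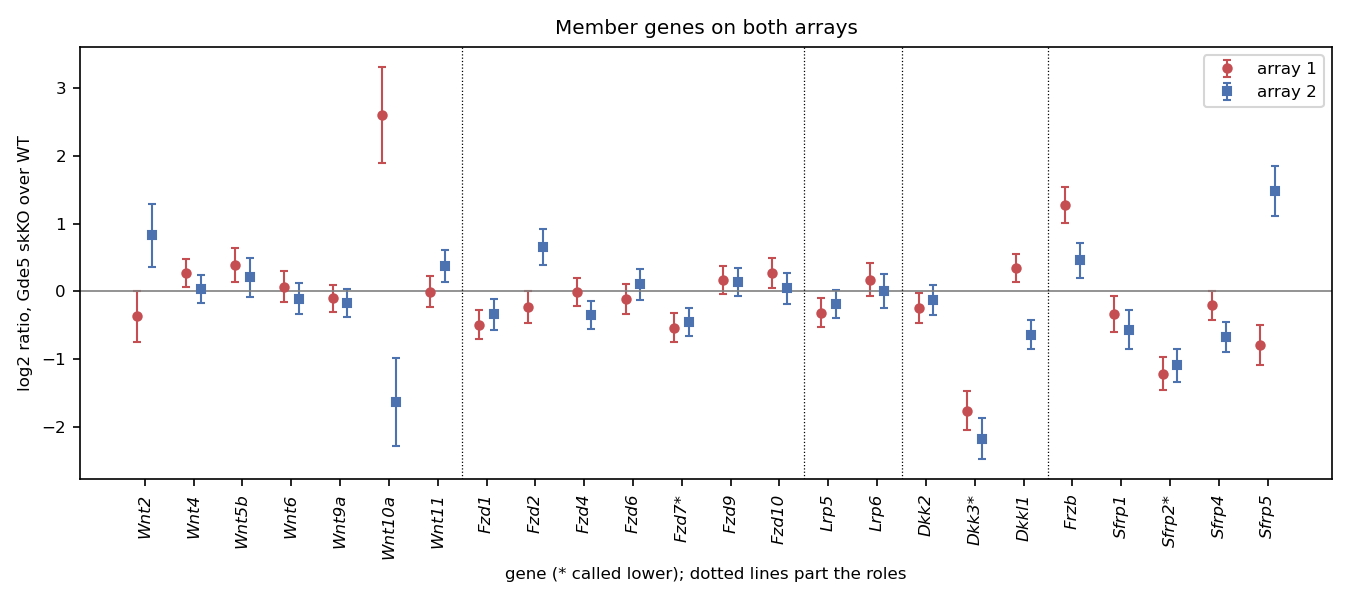
Log2 ratio of *Gde5* skKO over WT for the 24 tested members, with circles for array 1, squares for array 2 and bars of 1 error from the scanner software's error model. Dkk3, Sfrp2 and Fzd7 lie below 0 on both arrays past the threshold, and Wnt10a and Sfrp5 lie on opposite sides of 0.

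The 3 mean ratios farthest from 0 among the members above background in both channels of both arrays were those of Dkk3, Sfrp2 and Frzb. All 3 are grouped here as secreted antagonists, a group formed by name that holds every Dickkopf gene. Whether Dkk3 and Dkkl1 block Wnt signals was not tested. Of 11 antagonists 8 were tested, 2 were called lower and none higher, beside 1.74% and 1.58% of all genes. Dkk3, at chr7:111908495-111908554 of mm8 on the minus strand, had WT signals of 292 and 383 and *Gde5* skKO signals of 86.5 and 85.0. The WT signals were over 3 times the *Gde5* skKO signals on each array, and all 4 channels were above background. Its ratios were -1.76 (error 0.28) and -2.17 (error 0.31), with a mean of -1.97 ± 0.29 (SD, n = 2 arrays). With normexp and loess the mean was -0.78, with an adjusted p of 0.0215 in limma's moderated test, and with loess and no background correction it was -0.87, so the size of the difference moved with the processing.

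Sfrp2, at chr3:83859869-83859928 of mm8 on the plus strand, had WT signals of 278 and 276 and *Gde5* skKO signals of 120 and 130. The signals of a genotype lay close together on the arrays, and the genotypes did not overlap. The ratios were -1.21 (error 0.25) and -1.09 (error 0.24), with a mean of -1.15 ± 0.09 (SD, n = 2 arrays). The mean was -0.57 with normexp and loess, with an adjusted p of 0.0466.

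Frzb moved the other way on array 1. This antagonist, also known as Sfrp3, had 72.7 and 93.5 in WT against 176 and 129 in *Gde5* skKO. The groups did not overlap, and the ratios were 1.28 (error 0.26) and 0.46 (error 0.26), of which the first alone passed the threshold. The mean of 0.87 ± 0.58 (SD, n = 2 arrays) was the highest of the tested members and became 0.32 with normexp and loess.

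Sfrp1 and Sfrp4 had both ratios below 0 and passed the threshold on array 2 only. Sfrp1 had 92.1 and 99.8 in WT against 73.0 and 67.5, with ratios of -0.34 and -0.56. Sfrp4 had 216 and 353 in WT against 188 and 222, with ratios of -0.20 and -0.67, and its genotypes overlapped. Sfrp5 had 109 and 39.9 in WT against 62.9 and 112 in *Gde5* skKO. It was brighter in Cy3 on both arrays, with ratios of -0.79 and 1.48. Sfrp5 and Wnt10a were the 2 of 24 tested members called in the dye direction, where 1.56% of all tested genes were.

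Among the remaining Dickkopf genes, Dkk2 had 200 and 208 in WT against 169 and 190, with ratios of -0.24 and -0.13, without overlap and below the threshold. Dkkl1, a Dickkopf-like protein known from testis, had 808 and 982 in WT against 1027 and 632, with ratios of 0.35 and -0.64, brighter in Cy5 on both arrays. Wif1 was above background on array 1 only, where its signals were 148 in WT and 216 in *Gde5* skKO, and had 81.1 and 13.96 on array 2, with ratios of 0.54 and -2.54. Like Dkkl1 it was brighter in Cy5 on both arrays. Over the 8 tested antagonists the median of the mean ratios was -0.31, beside 0.01 over all tested genes. Of the 8, 1 lay above 0 on both arrays and 5 below, beside 3961 and 3427 of all 13565 tested genes. Axin2, which β-catenin signalling is known to raise, was above background only in the *Gde5* skKO channel of array 1, at 40.8 against 27.9 in WT, with 12.3 against 29.9 on array 2, and was not tested.

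**Figure D3:**
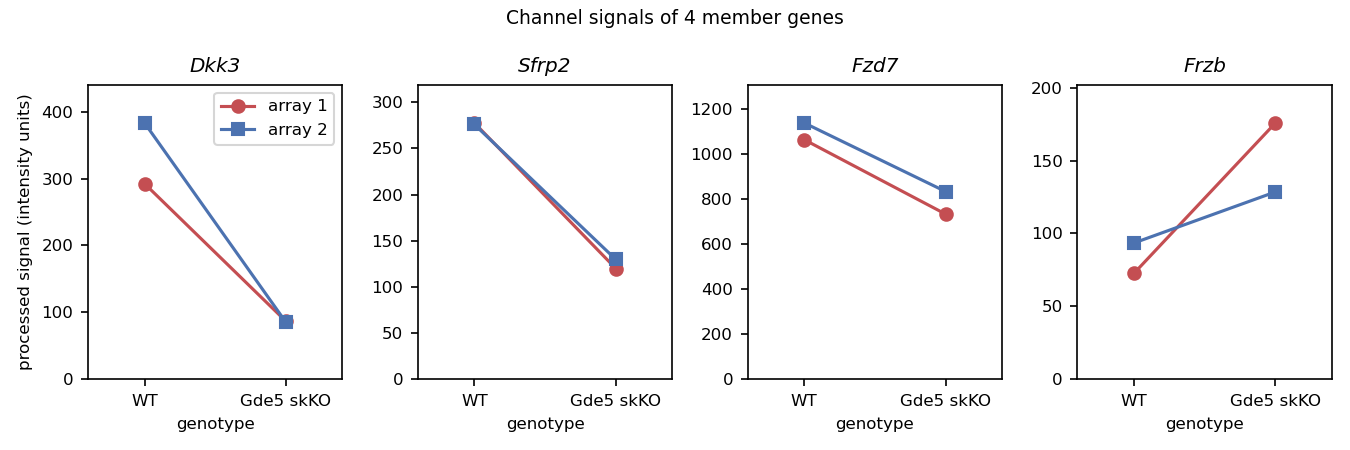
Processed signal in arbitrary intensity units in the WT and *Gde5* skKO channels for Dkk3, Sfrp2, Fzd7 and Frzb, each panel with its own axis from 0 and a line per array. The WT signals of the first 3 genes lie above their *Gde5* skKO signals on both arrays, with 292 and 383 against 86.5 and 85.0 for Dkk3, and those of Frzb below.

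The arrays lay closer together for members with signal above background. Among the 21 members above background in both channels of both arrays, 16 had the same genotype direction on both arrays, and the median gap between the arrays was 0.22, beside 6993 of 12314 and 0.20 for all genes above background in this way. Among the other 26 members 1 had the same genotype direction, beside 2144 of all 15237 other genes. A ratio of exactly 0 on an array was found for 10, beside 7436 of those genes. On both arrays 9 members were brighter in Cy3 and 6 in Cy5, beside 3687 and 1970. The median gap of these members was 1.26, beside 0.68 for all other genes. Across genes, which share both hybridizations and are not replicates, array 1 and array 2 correlated with Pearson's r of 0.78 among the 21 members (Spearman's rho 0.58) and of 0.03 among all 24 tested (rho 0.18). Members with large ratios, such as Dkk3, weigh most in Pearson's r, and the correlation over all genes was not computed.

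**Figure D4:**
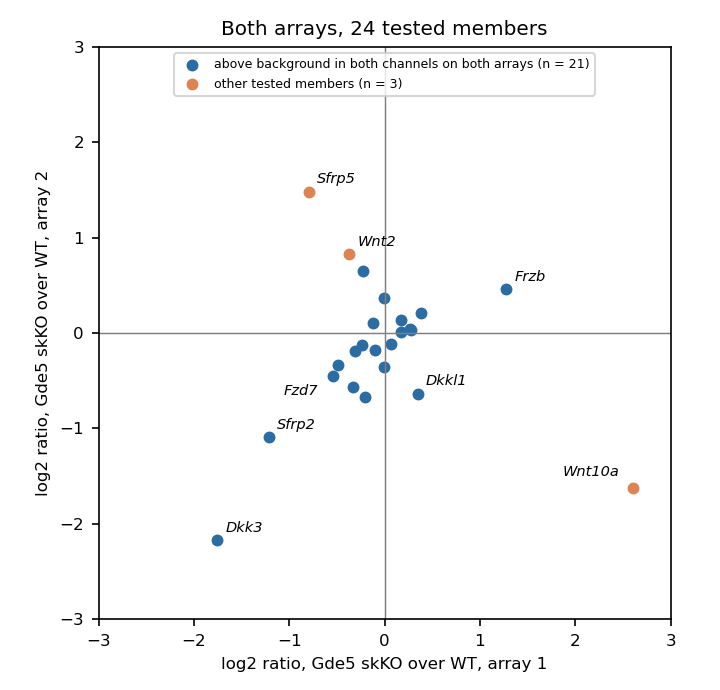
Log2 ratio of *Gde5* skKO over WT on array 1 (horizontal) against array 2 (vertical) for the 24 tested members. The 21 members above background in both channels of both arrays (blue) run from Dkk3 at the lower left to Frzb at the upper right, and Wnt10a, Sfrp5 and Wnt2 (orange) lie in the quadrants of opposite sign.

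RefSeq windows before the gene start on the mouse build GRCm38.p6 are shown for Sfrp2 and Fzd7, the called members found in that table, to place their regulatory sequence beside the ratios. Of the 47 members 31 had an entry, and Dkk3 had none. Each holds the 250 bases before the start on the plus strand, chr3:83766071-83766320 for Sfrp2 and chr1:59481897-59482146 for Fzd7, and capitals mark the GC box searched for.
Sfrp2: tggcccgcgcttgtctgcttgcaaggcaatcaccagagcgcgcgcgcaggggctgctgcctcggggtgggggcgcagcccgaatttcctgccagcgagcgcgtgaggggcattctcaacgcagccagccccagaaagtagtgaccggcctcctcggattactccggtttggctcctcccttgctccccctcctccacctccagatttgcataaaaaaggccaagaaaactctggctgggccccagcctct
Fzd7: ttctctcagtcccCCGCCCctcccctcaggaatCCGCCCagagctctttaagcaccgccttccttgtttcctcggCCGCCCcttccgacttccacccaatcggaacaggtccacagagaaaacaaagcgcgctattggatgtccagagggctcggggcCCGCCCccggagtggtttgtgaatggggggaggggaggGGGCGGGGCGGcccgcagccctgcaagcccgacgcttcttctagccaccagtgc
Neither window held CTTTGA on either strand, against 13.8% of 32851 windows of that length. CTTTGA is only 1 spelling of the core that the β-catenin partners TCF and LEF are known to bind. The spelling CTTTGT was not searched for, and the Fzd7 window printed above holds it on the other strand, as ACAAAG. The search therefore does not show that the Fzd7 window lacks the core, and the 13.8% covers CTTTGA alone. TATAAA was found in neither window, against 12.4%. GGGCGG, the GC box, was found on either strand 6 times in the Fzd7 window, with 2 copies overlapping by a base, and not in that of Sfrp2, against 32.7% of windows with at least 1. GC content was 63.6% for Sfrp2 and 65.2% for Fzd7, with a median of 52.4% over all windows. A match is a description of the letters and not a site.

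Besides the members, 66 of 82 listed pathway genes were tested, of which 2 were called lower and none higher, beside 1.74% and 1.58% of all tested genes, so the lower count is near the background. Wls, which carries lipid-modified Wnt ligands to the cell surface for secretion, had 1881 and 1657 in WT against 1097 and 1066 in *Gde5* skKO, with ratios of -0.78 and -0.64 and a mean of -0.71. Camk2a, a calcium-dependent kinase of muscle and brain, had 6426 and 6934 against 4437 and 4555, with ratios of -0.53 and -0.61. In both genes the genotypes did not overlap. Of the destruction complex that holds β-catenin down, Gsk3b had ratios of 0.05 and 0.13 and Apc of -0.48 and -0.15. Csnk1a1 had 0.02 and -0.25, and Gsk3a -0.22 and 0.47. Axin1, not above background in every channel, had 0.81 and -0.34 and was brighter in Cy5 on both arrays. β-Catenin itself, Ctnnb1, had -0.09 and -0.02, and none of these genes was called. Of 25 listed target genes of the pathway 17 were tested and none was called, with a median of -0.10. The median over the 66 genes was -0.05, beside 0.01 over all tested genes, and Nkd2 and Daam2 were called in the dye direction, where 1.56% of all tested genes were.

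Among the listed markers of other cells, some were called lower and none was called higher. Over all tested genes, 1.74% were called lower and 1.58% higher. In bulk muscle, fewer cells of a type and less RNA per cell cannot be told apart. Of 10 fibroblast and connective tissue markers, 2 were called lower, Mfap4 at a mean of -1.84 and Pi16 at -0.95, while Dpt at -0.60, Dcn at -0.27, Lum at -0.19, Pdgfra at -0.15, Col1a1 at -0.03, Col1a2 at 0.05, Col3a1 at 0.03 and Mfap5 at 0.03 were not called. Of the 10, 5 lay below 0 on both arrays and 2 above, beside 3427 and 3961 of all 13565 tested genes. The median of the 10 was -0.17. Their summed signal, of which Dcn is the largest part, was 101570 and 92532 in WT against 89554 and 87796 in *Gde5* skKO. Such sums add signals of different oligonucleotides, so the brightest dominate, and they are no measure of the content of a cell type. Of 7 tendon markers Kera was called lower at -0.50, while Fmod at -0.41, Comp at -0.40, Tnmd at -0.26, Mkx at -0.18, Thbs4 at 0.29 and Scx at 0.47 were not called. The tendon sums were 9517 and 8677 against 9707 and 9331, with Thbs4, the largest part, at 4728 and 4076 against 5608 and 5112. Of 6 adipocyte markers 5 were tested and 4 were called lower, Adipoq at -0.97 and -1.03 on the arrays and, as means, Cfd at -0.90, Retn at -0.83 and Plin1 at -0.69, with Fabp4 at 0.05 and Lep dark in all channels. The adipocyte sums, 42877 and 44221 in WT against 42772 and 40525, are carried mostly by Fabp4 and Cfd. Of 6 liver markers 3 were tested and 2 called lower, Mup1 at -0.97 and Serpina1d at -1.12, whose oligonucleotides may read close paralogs, with sums of 2960 and 2958 against 1447 and 1526. Markers of smooth muscle, endothelium, Schwann cells, satellite cells and leukocytes had none called, over 4, 4, 4, 2 and 2 tested. Lists this short could hold none at the share over all genes. The part of these cells in the ratios of Dkk3, Sfrp2, Fzd7 and Wls was not tested.

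**Figure D5:**
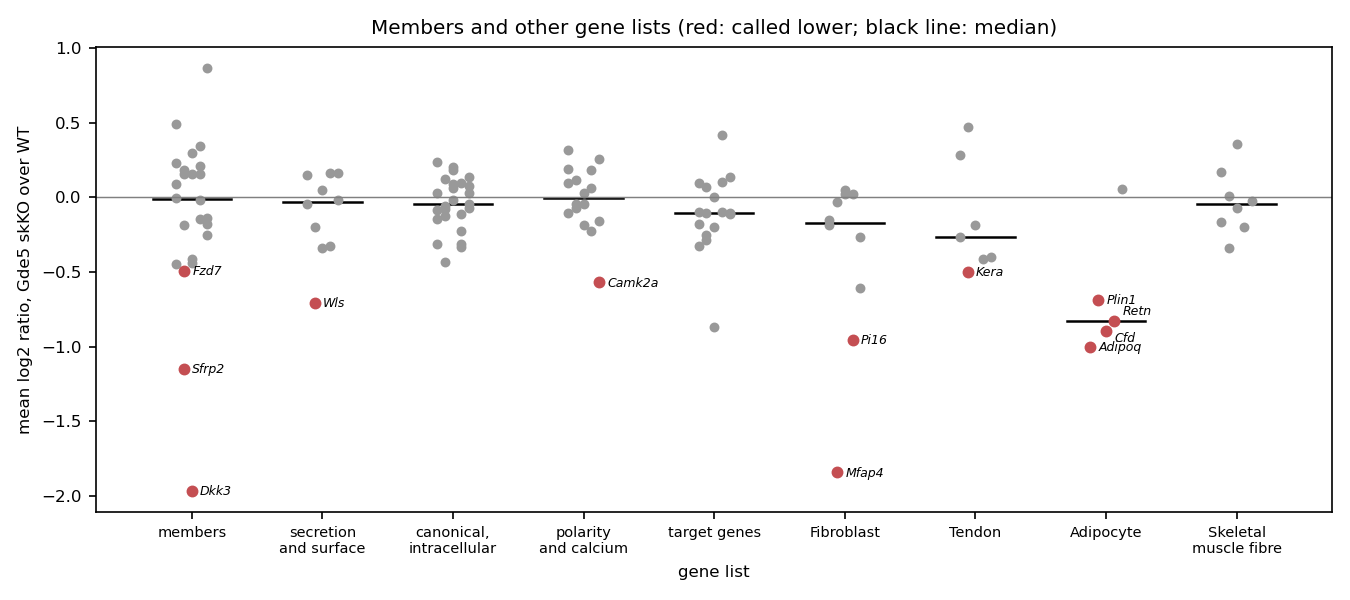
Mean log2 ratio of *Gde5* skKO over WT over both arrays for each tested gene, in columns for the members, the pathway lists and 4 marker lists. Red points with names were called lower, grey points were not, and black lines are medians. Dkk3 at -1.97 is the lowest point shown, next to the fibroblast marker Mfap4 at -1.84, and the medians of the members and of the pathway lists lie near 0.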

How the data were processed

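The authors extracted the scans with Agilent Feature Extraction 9.5 (9.5.3.1 in the file headers). The deposited values are log10 ratios of the red over the green dye for every spot, background-subtracted and dye-normalized. A p-value of that ratio from the software's error model stands beside it in the deposited files. They also hold the intensity of each spot per channel with that of the surrounding background, and the series table deposited by the authors repeats the log10 ratio with fewer digits.

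Here they were put on the log2 scale with *Gde5* skKO as numerator, as the dyes in the labels give it. Control spots and marked spots were left out, among them 39 and 21 with a non-uniform local background. Repeated spots were averaged, with the root mean square of their errors, and counted as above background when most were. No member spot was saturated. The brightest oligonucleotide stood for a gene. Of the 62 member oligonucleotides 57 could be named by RefSeq accession, and 2 outside the rule, C030016K15Rik and D930050A07Rik, carry the current symbols Lrp6 and Fzd3 and were not counted as members.

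The members, gene lists and rule for named genes were chosen with earlier results of these data known. The rule names every called member, every member above background in both channels of both arrays, members whose oligonucleotides differ in call, called pathway genes, Ctnnb1, Axin1, Gsk3b and *Gde5*. Apc, Csnk1a1, Gsk3a and the markers named singly were chosen after their values were seen. Alternatives used limma 3.58.1 under R 4.3.3, with normexp at an offset of 50, loess and a moderated test. Its p-values were adjusted by Benjamini-Hochberg over all tested genes. Others were other thresholds and filters, the series table, an unpaired Student's t-test of log2 channel signals, and each array alone. The paper names Student's t-test for comparing 2 groups, but not for the arrays. Here it set 2 signals against 2, ignored the pairing by hybridization and took arrays that may share RNA as replicates. Scripts ran under Python 3.11.15 with pandas 2.3.3, scipy 1.17.1 and matplotlib 3.10.9.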

Additional observations from a re-analysis of the deposited data

How the results depend on the processing

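The count of 3 members called lower was 2 with p under 0.01, with adjustment per array, with a mean ratio 1 or more log2 units from 0 and by limma's adjusted p, where Dkk3 and Sfrp2 passed and Fzd7 did not. By an unpaired t-test of channel signals it was 5, with Lrp5 and Sfrp1 besides, and 0 after adjustment. From each array alone it was 5 to 7. The count of 0 members called higher was 1 by limma without adjustment, where Frzb passed, and 0 by the t-test. It was 2 from either array alone, with Frzb and Wnt10a on array 1 and Fzd2 and Sfrp5 on array 2. Over all 13565 tested genes, limma without adjustment passed 576 higher and 581 lower, and with adjustment 39 and 70. From array 1 alone 7 members and 1647 of all tested genes passed in either direction, and from array 2 alone 9 and 1879. Counts over all genes were not made for the other alternatives. The dye-direction count of 2 was 1 with p under 0.01, and 0 with both channels above background or after adjustment. It was 2 by limma's moderated test of the unturned ratios, which, with the joint Feature Extraction and limma criterion for lower members (3 again), was chosen after seeing the data. Stricter thresholds, fewer genes tested and fewer arrays change counts by construction, but the cause was not tested where the test itself was another.

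Of the 24 tested members, Fzd6, Lrp6 and Wnt10a changed the sign of their mean ratio with normexp and loess, and Wnt6 as a mean over all oligonucleotides. From array 1 alone Dkkl1, Fzd2, Sfrp5, Wnt11, Wnt2 and Wnt6 changed sign, and from array 2 alone Fzd6 and Wnt10a. None of these was called higher or lower. All 3 members called lower kept their direction under every alternative run. Between 21 and 29 members counted as above background under other channel rules, against 24, and the median of the pathway list lay between -0.05 and -0.02. Signals near background limit the ratios of Wnt2, Wnt10a, Sfrp5 and Wif1. The slide could not be fitted as a block, since both arrays lie on 1 slide. WT and *Gde5* skKO were paired by hybridization in every ratio and in the limma fit of these ratios. The t-test of channel signals ignored that pairing. The replicate numbers, which name arrays, add no further block.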
